A study of Homo sapiens with 6 samples.

Results

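The vacuolar proton pump (V-ATPase) was examined through 10 of its subunit genes, ATP6V0D1, ATP6V0C, ATP6V0B, ATP6V1G1, ATP6V1A, ATP6V1H, ATP6V0E1, ATP6V1D, ATP6V1C1 and ATP6AP1, out of 20037 protein-coding genes and out of 27 pump genes listed from the known composition of the enzyme. Chromatin occupancy had been profiled in LNCaP, an androgen-responsive human prostate cancer line, and PC3, an androgen-independent one, both with no treatment named in the labels and cultured in RPMI-1640 containing 8% fetal bovine serum. Each line gave 1 library with an antibody against PRMT5, an arginine methyltransferase of histones and splicing proteins, 1 with an antibody against METTL3, the catalytic subunit of the RNA m6A writer, and 1 control titled IgG whose antibody field names a secondary antibody only. Antibody-guided Tn5 transposase cut chromatin in 100000 cells per library, with 16 PCR cycles. The data are 4 lists of peaks, each called by the authors against the control of its own line, on hg38.

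For each gene, the entries were taken whose summit lay inside the gene or within 3 kb of its start or end. The genes were put together with their PRMT5 peaks already known, so the counts and folds below describe these lists and carry no test. With 1 library per group there is no spread between replicates. How deeply the libraries were sequenced is unknown. On chromosomes 1 to 22, X and Y the PRMT5 lists held 980 entries in LNCaP and 1661 in PC3, and the METTL3 lists 173 and 7453, respectively. The fold given for an entry is the authors' caller's ratio of the library to the expected control signal. It is read here within a list, because each line had its own control. Peaks of these antibodies report occupancy and not expression, so the lines could not be checked by their marker genes. Of 7 LNCaP markers none had an entry in a LNCaP list. One of them, KLK2, had one in a PC3 list (METTL3, fold 6.83), with the summit 2678 bp outside the gene. Of 5 PC3 markers 1, AXL, had one in a PC3 list (PRMT5, fold 7.79). Of all protein-coding genes, 0.389% had an entry in LNCaP METTL3, 3.08% in LNCaP PRMT5, 11.6% in PC3 METTL3 and 4.59% in PC3 PRMT5. Nothing is read from so few markers.

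The V-ATPase is a rotary motor that pumps protons into lysosomes, endosomes and secretory vesicles. Its cytosolic V1 sector hydrolyses ATP and turns a central stalk, and its membrane V0 sector carries protons through a ring of proteolipid subunits. Many lysosomal genes, pump subunits among them, carry in their promoters an E-box, a short DNA word bound by basic helix-loop-helix factors such as TFEB, TFE3 and MITF.

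PRMT5 entries lay at 6 of the 10 genes, where 6.28% of protein-coding genes had one in either line, and 4 of the 6 had one in both. In LNCaP, 5 genes had an entry (ATP6V0D1, ATP6V0C, ATP6V0B, ATP6V1G1 and ATP6V1C1), where 3.08% of all protein-coding genes did by the same rule. In PC3, 5 had an entry (ATP6V0D1, ATP6V0C, ATP6V0B, ATP6V1G1 and ATP6V1A), where 4.59% of protein-coding genes did. The 4 genes with an entry in both lines compare with 1.39% of protein-coding genes. METTL3 entries were found at none of the 10 in LNCaP, where 0.389% of protein-coding genes had one, and at ATP6V1A alone in PC3, where 11.6% did. Nothing is read from the PRMT5 counts against their background, since those peaks chose the genes. The plot of folds by gene shows every entry in reach.

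**Figure D1:**
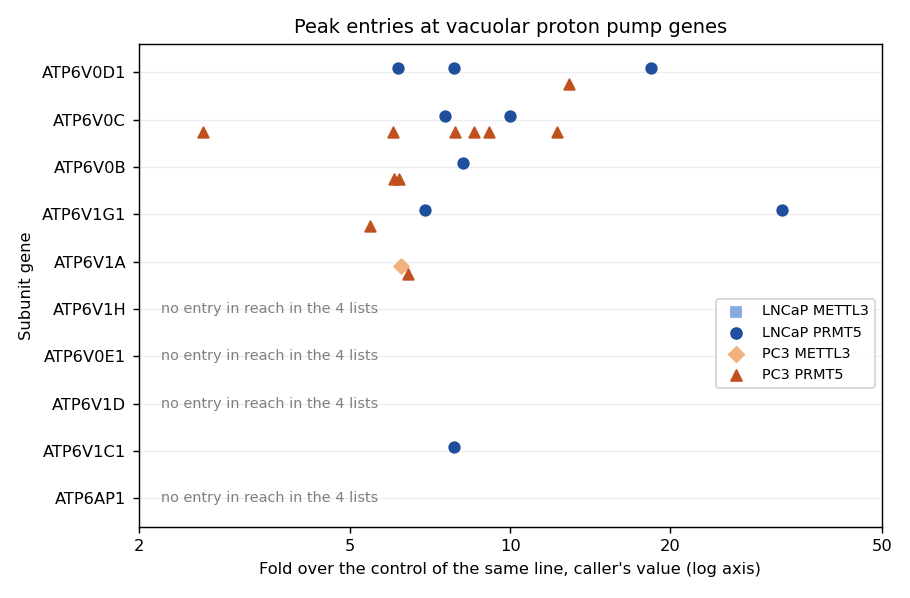
Fold over the control (horizontal log axis, the authors' caller's values) of every peak entry in reach of the 10 subunit genes (rows), with 1 symbol per entry coloured by antibody and line. LNCaP PRMT5 entries reach 32.4 at ATP6V1G1 and 18.4 at ATP6V0D1, PC3 PRMT5 entries reach 12.9 at ATP6V0D1, and ATP6V1H, ATP6V0E1, ATP6V1D and ATP6AP1 have none.

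ATP6V0D1 encodes subunit d of the V0 sector, which couples the turning stalk to the proteolipid ring. It spans chromosome 16, positions 67438019 to 67481157, on the minus strand. In LNCaP the PRMT5 list held an entry at positions 67481132 to 67481459 with a fold of 18.4 and a −log10 p of 45.1, which ranked 25 of 980 by fold. In PC3 it held one at 67481127 to 67481354 with a fold of 12.9 and a −log10 p of 40.9, which ranked 44 of 1661. The LNCaP summit lay 79 bp and the PC3 summit 78 bp upstream of the annotated start, so they were 1 bp apart. The pair overlapped by 223 bp, which was 68.0% of the LNCaP peak and 97.8% of the PC3 peak. AGRP, which encodes a neuropeptide, has its nearer end 1.34 kb away from both summits. LNCaP had 2 further entries, 1 of fold 6.14 located 599 bp upstream of the start and 1 of fold 7.85 inside the gene, 3496 bp from its far end.

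The bases before the start of ATP6V0D1 are shown because the coinciding summits lie in them. The sequence is chr16:67481158-67481407, GRCh38.p14 from RefSeq, minus strand, read 5′ to 3′ with the last base next to the start, and the capitals mark the E-box core CACGTG.
ATP6V0D1: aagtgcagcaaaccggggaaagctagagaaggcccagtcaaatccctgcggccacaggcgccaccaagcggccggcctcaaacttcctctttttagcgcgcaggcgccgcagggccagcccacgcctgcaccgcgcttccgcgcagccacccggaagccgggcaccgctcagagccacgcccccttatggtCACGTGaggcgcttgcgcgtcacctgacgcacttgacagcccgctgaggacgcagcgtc
The core lies 59 to 54 bases before the start. It was 20 bp from the LNCaP summit and 19 bp from the PC3 summit, inside both peaks.

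ATP6V1G1 encodes subunit G of the peripheral stalk, which holds the V1 head still against the turning rotor. It spans chromosome 9, positions 114587769 to 114598879, on the plus strand. In LNCaP its entry at positions 114587324 to 114587902 had a fold of 32.4 and a −log10 p of 79.5, and it ranked 5 of 980 by fold and 59 by p. In PC3 the entry at 114587539 to 114587899 had a fold of 5.43 and a −log10 p of 19.4, and it ranked 1029 of 1661 by fold but 175 by p. The place in the PC3 list thus depended on which of the caller's values was used. The summits lay 88 bp upstream of the start in LNCaP and 86 bp in PC3, 2 bp apart, and the whole PC3 peak lay inside the LNCaP one. A second LNCaP entry, of fold 6.91, lay 719 bp downstream of the start. No other protein-coding gene ended within 3 kb of any of these summits.

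The corresponding promoter sequence, chr9:114587519-114587768 on the plus strand (GRCh38.p14, RefSeq, 5′ to 3′), is given with the E-box core in capitals.
ATP6V1G1: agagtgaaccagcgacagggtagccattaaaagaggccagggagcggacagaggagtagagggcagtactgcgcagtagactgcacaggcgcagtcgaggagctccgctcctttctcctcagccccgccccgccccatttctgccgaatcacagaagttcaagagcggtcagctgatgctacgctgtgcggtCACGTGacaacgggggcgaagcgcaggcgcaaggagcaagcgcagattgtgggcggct
The core lies 58 to 53 bases before the start, 30 bp from the LNCaP summit and 28 bp from the PC3 summit. Both peaks contained it.

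For comparison, summits coincided this closely at few places. Over the 298 LNCaP PRMT5 peaks that overlapped a PC3 PRMT5 peak, the median distance between the summits was 35.5 bp, and 33 of them, 11.1%, had summits at most 2 bp apart. ATP6V0D1 and ATP6V1G1 were among these. The maps around gene starts show the peaks of both lines at 4 of the genes.

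**Figure D2:**
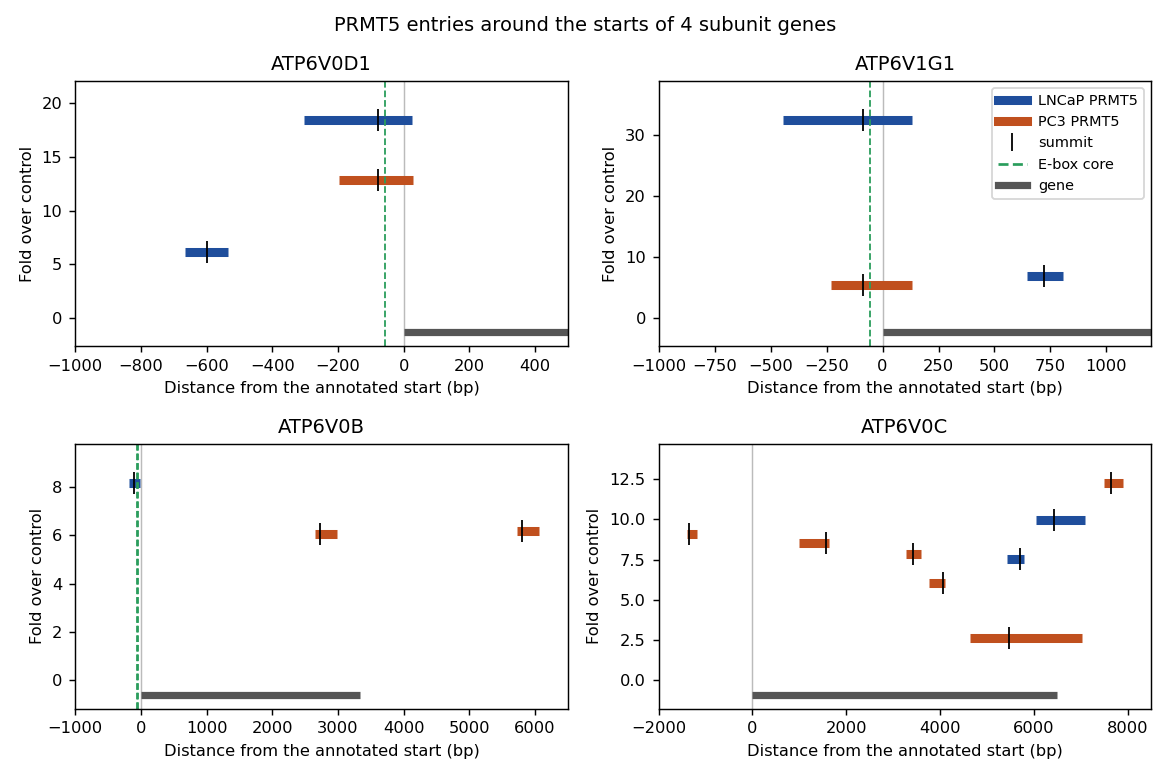
PRMT5 peaks around the annotated starts of ATP6V0D1, ATP6V1G1, ATP6V0B and ATP6V0C, oriented so that the gene (grey bar) runs to the right. The horizontal axis is the distance from the start in bp, the vertical axis the fold over control, coloured bars span each peak in LNCaP and PC3, black ticks are summits and dashed lines the E-box core. The peaks of both lines stack over the E-box 59 and 58 bases before the starts of ATP6V0D1 and ATP6V1G1 and lie apart at ATP6V0B. The entry of ATP6V0D1 near its far end is outside the range drawn.

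ATP6V0B encodes proteolipid c'', one of the ring subunits that carry protons. It spans chromosome 1, positions 43974960 to 43978295, on the plus strand. In LNCaP its single entry, at 43974787 to 43974948, had a fold of 8.14 and ranked 271 of 980, with the summit 98 bp upstream of the start. DPH2, of diphthamide synthesis, has its nearer end 1.49 kb from that summit. In PC3 no PRMT5 peak overlapped it. Its PC3 entries lay inside the gene, 610 bp from its end (fold 6.05), and 2.47 kb beyond that end (fold 6.18), ranking 771 and 686 of 1661. The second of these had its summit inside B4GALT2, a galactosyltransferase gene, 1.55 kb from the nearer end of that gene. The LNCaP and PC3 peaks were separated by 2658 bp, so ATP6V0B had a PRMT5 entry in both lines but no shared region.

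The promoter of ATP6V0B, chr1:43974710-43974959 on the plus strand (GRCh38.p14, RefSeq, 5′ to 3′), holds the E-box core at 2 places, in capitals.
ATP6V0B: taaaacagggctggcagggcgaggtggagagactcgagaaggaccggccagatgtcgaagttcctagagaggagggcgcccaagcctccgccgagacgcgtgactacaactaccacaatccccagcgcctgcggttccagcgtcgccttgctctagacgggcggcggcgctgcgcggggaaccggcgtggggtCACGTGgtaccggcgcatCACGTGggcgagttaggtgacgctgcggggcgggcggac
The cores begin 57 and 39 bases before the start, 41 and 59 bp from the LNCaP summit, and both lay inside the LNCaP peak.

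Set side by side over 20 bases, the E-boxes of the pump genes differ in their flanks. ATP6V0E2, which encodes an isoform of the small membrane subunit e, is added as the remaining pump gene with this word, among the 12 other pump genes whose promoter sequence was held, and it had no entry in any list. Coordinates are GRCh38.p14 and each line reads 5′ to 3′ on the strand of its gene, with the core in capitals.
ATP6V0D1, chr16:67481204-67481223: ttatggtCACGTGaggcgct
ATP6V1G1, chr9:114587704-114587723: gtgcggtCACGTGacaacgg
ATP6V0B, chr1:43974896-43974915: gtggggtCACGTGgtaccgg
ATP6V0B, chr1:43974914-43974933: ggcgcatCACGTGggcgagt
ATP6V0E2, chr7:149872889-149872908: tctgcatCACGTGgggactg
Of the 14 flanking bases, ATP6V1G1 and the first ATP6V0B window had 10 in common, and the other pairs of windows had between 3 and 6. The longer word GTCACGTGA, or its reverse complement, was present in the promoters of ATP6V0D1 and ATP6V1G1. It was in 1.45% of the promoters of 15843 protein-coding genes with a sequence. Its share was 39.1% of those with a LNCaP PRMT5 summit, 43.7% with a PC3 one and 60.3% with one in both lines. With a further C at its end the word becomes a palindrome, which ATP6V1G1 had and ATP6V0D1 lacked. That palindrome was in 1 of the 6 subunit gene promoters with a sequence and in 0.638% of all promoters. Its share was 24.2%, 26.9% and 37.0% of promoters with a PRMT5 summit in LNCaP, in PC3 and in both.

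The E-box core was common at PRMT5 promoter peaks at large. A promoter window ran from 250 bases before to 50 after a start, and both strands were searched for CACGTG, which is its own reverse complement. The core was in the windows of 1727 of 15843 genes, 10.9% (95% exact binomial interval 10.4 to 11.4). Counts are by gene, over all of its windows. Of genes with a LNCaP PRMT5 summit in a window, 133 of 161 had the core, 82.6% (75.9 to 88.1). For PC3 PRMT5 it was 95 of 119, 79.8% (71.5 to 86.6). With summit and core in the same window, the counts were 130 of 161 and 91 of 119. For the 73 genes whose promoter windows held a summit in both lines, the core was in 68, 93.2% (84.7 to 97.7), again over all windows. METTL3 summits lay in the windows of 2 genes in LNCaP and 10 in PC3, too few to describe a share. These intervals cover counting error only, and neighbouring genes can share a window and a peak. A match is a description of the letters present and shows no factor at the site.

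**Figure D3:**
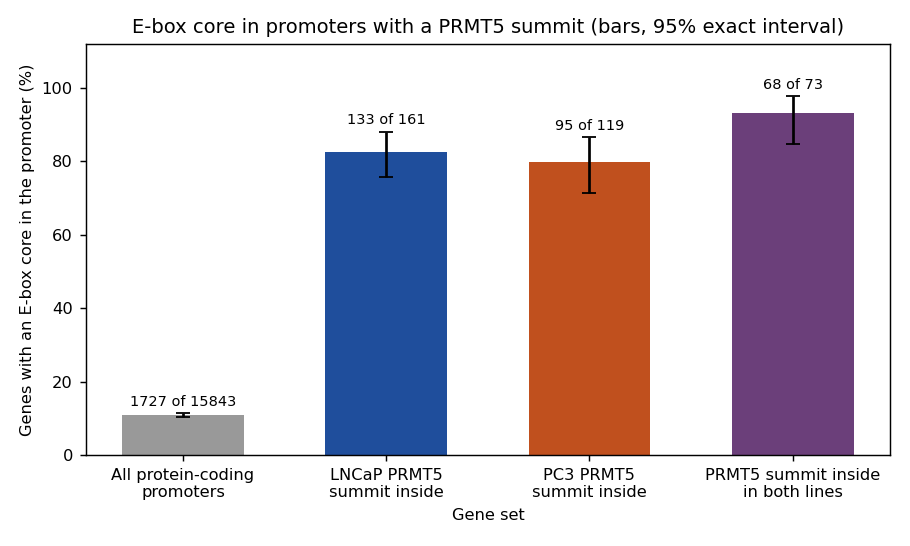
Percentage of protein-coding genes with the E-box core in any promoter window (250 bases before to 50 after a start), with 95% exact binomial intervals and gene counts. Bars are all genes and genes with a PRMT5 summit in any of their windows. The share is 10.9% of all promoters and 82.6%, 79.8% and 93.2% of those with a summit in LNCaP, in PC3 and in both.

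The distance from summit to core could be given for 3 of the subunit genes. Among promoters holding both a PRMT5 summit and the core in 1 window, the median distance from the summit to the nearest core was 22.5 bp in LNCaP (130 genes) and 26 bp in PC3 (91 genes). In LNCaP 80.8% and in PC3 74.7% lay within 50 bp. ATP6V0D1 and ATP6V1G1, at 19 to 30 bp, lay near these medians in both lines, and ATP6V0B, at 41 bp in LNCaP, lay further out. The median summit was 105 bp upstream of the start in LNCaP and 109 bp in PC3, against 78 to 98 bp for these 3 genes. Only summits inside the promoter window entered these medians, and summits spread evenly over it would have their median at its midpoint. Nothing is therefore read from the distance to the start.

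**Figure D4:**
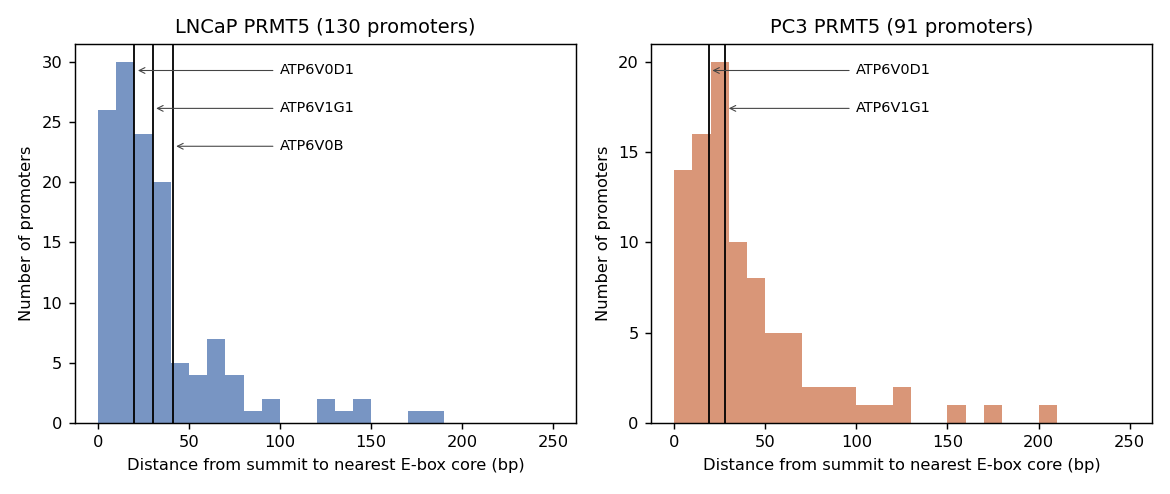
Number of promoters (vertical axis) by the distance in bp from the PRMT5 summit to the nearest E-box core (horizontal axis, 10-bp bins), for LNCaP and PC3, with subunit genes marked by black lines. ATP6V0D1 lies at 20 and 19 bp, ATP6V1G1 at 30 and 28 bp and ATP6V0B at 41 bp in LNCaP only.

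ATP6V0C encodes proteolipid c, the main subunit of the proton-carrying ring, and its entries were spread over the gene. It spans chromosome 16, positions 2513726 to 2520218, on the plus strand. PC3 PRMT5 held 6 entries in reach, with folds of 9.12 at 1341 bp upstream of the first annotated start, 8.53, 7.86, 6.02 and 2.64 inside the gene and 12.3 at 1145 bp beyond its end. Their −log10 p ran from 5.53 to 23.9. The summit beyond the end lay inside the neighbouring gene AMDHD2, 992 bp from its start, and so nearer to it than to ATP6V0C. Of 919 protein-coding genes with a PC3 PRMT5 entry, 722 had exactly 1 and 11 had at least 6, a comparison made after the count was seen. Within 1 Mb of the gene lay 18 entries of this list, the most of the 10 genes.

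In LNCaP the entries at ATP6V0C lay at its far end only. They had folds of 7.52 and 9.96, with summits 785 and 64 bp inside the end, ranking 346 and 158 of 980. The second summit was also 217 bp upstream of the start of AMDHD2, a gene of amino sugar metabolism, whose promoter window held it together with an E-box core 138 bp away. Neither lay near the start of ATP6V0C, and the gene's own promoter windows held no CACGTG. Both LNCaP peaks overlapped the broad PC3 peak of 2387 bp at 2518371 to 2520757, which had the lowest fold of the PC3 entries, 2.64, and ranked 1615 of 1661. The shared region at ATP6V0C therefore rests on that weak PC3 entry, and which of the neighbouring genes the peaks belong to cannot be told apart.

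By the highest fold at each gene, the LNCaP order was ATP6V1G1 (32.4), ATP6V0D1 (18.4), ATP6V0C (9.96), ATP6V0B (8.14) and ATP6V1C1 (7.85). In PC3 it was ATP6V0D1 (12.9), ATP6V0C (12.3), ATP6V1A (6.41), ATP6V0B (6.18) and ATP6V1G1 (5.43). The PC3 summits behind 12.3 and 6.18 lay inside the neighbouring genes AMDHD2 and B4GALT2. The next highest PC3 folds were 9.12 at ATP6V0C and 6.05 at ATP6V0B, which keep the same order. Without replicates, no neighbours in these orders can be said to differ. The plot of rank within each list places the entries among all others. The median fold of the 9 LNCaP PRMT5 entries at these genes was 7.85 and that of the whole list 6.56, and in PC3 the median of the 11 entries was 6.41 and that of the list 5.89. Of the 9 LNCaP PRMT5 entries at these genes 8 lay in the upper part of the list, above its midpoint by fold, and of the 11 PC3 entries 9 did. By −log10 p, a ranking added after seeing the data, 7 and 6 did. These same peaks were known when the genes were put together, and 6 of the 11 PC3 entries are at ATP6V0C alone. Nothing is therefore read from their place in the lists.

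**Figure D5:**
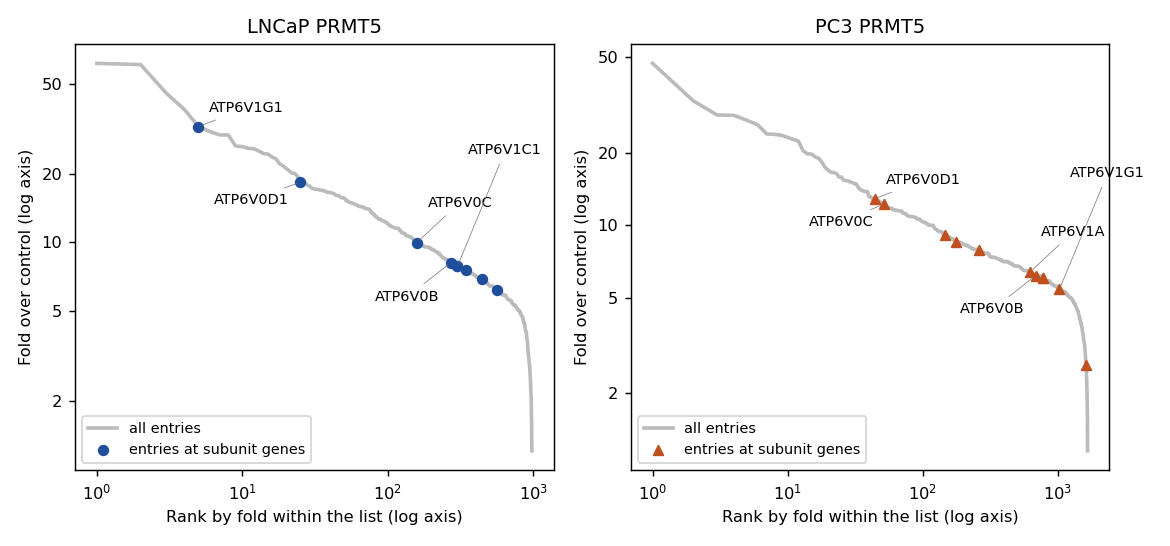
Fold over control against rank by fold, both on log axes, for all entries of the LNCaP and PC3 PRMT5 lists (grey line) and for entries at the subunit genes (symbols), with each gene named at its highest entry. ATP6V1G1 is at rank 5 in LNCaP and 1029 in PC3, and ATP6V0D1 at ranks 25 and 44. In PC3 the ATP6V0C and ATP6V0B names stand at entries with summits inside the neighbouring genes AMDHD2 and B4GALT2.

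The remaining V1 genes with an entry had it in 1 line. ATP6V1A encodes the catalytic subunit that binds and splits ATP. Its PC3 PRMT5 entry spanned 113746597 to 113747046 on chromosome 3, with a fold of 6.41, and had its summit 230 bp outside the gene and 556 bp from NAA50, an acetyltransferase gene. LNCaP had no PRMT5 entry within 7.08 Mb of it. ATP6V1A was the one gene of the 10 with a METTL3 entry, of fold 6.22 in PC3, whose summit lay 1.60 kb outside ATP6V1A. That whole peak lay inside NAA50, with the summit 814 bp from the nearer end of NAA50. A total of 336 entries of that list had the same fold. The METTL3 and PRMT5 summits in PC3 were on the same side of the gene and their peaks did not overlap.

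ATP6V1C1 encodes subunit C, which joins the head to the membrane sector and leaves it when the pump comes apart. Its LNCaP PRMT5 peak, at chromosome 8, positions 103021008 to 103021126, was 119 bp wide, the narrowest at these genes. The summit lay 44 bp outside the gene, and the fold of 7.85 was shared by 10 entries of the list, among them the one inside ATP6V0D1. In PC3 the nearest PRMT5 entry was 1.40 Mb away.

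The other 4 genes had no entry in reach in any list. ATP6V1H, which encodes the regulatory subunit H, had its nearest PRMT5 entries 1.75 Mb away in LNCaP and 10.5 Mb in PC3, and its nearest METTL3 entries 1.75 and 2.35 Mb away, so no entry of the 4 lists lay within 1 Mb of it. The nearest LNCaP METTL3 entries of the other 3 were further, at 3.69 Mb for ATP6V0E1, 5.85 Mb for ATP6AP1 and 22.4 Mb for ATP6V1D. ATP6V0E1, which encodes subunit e of the membrane sector, had a LNCaP PRMT5 entry of fold 6.63 at 21.8 kb and a PC3 one at 210 kb. For ATP6V1D, whose product is a shaft of the turning stalk, the nearest PRMT5 entries lay 2.57 Mb away in LNCaP and 150 kb in PC3. A PC3 METTL3 entry of fold 5.71 lay 29.2 kb from it, and 26 entries of that list lay within 1 Mb of the gene. For ATP6AP1, which encodes an accessory subunit of assembly and sorting, both PRMT5 lists had their nearest entry 1.58 Mb away, and a PC3 METTL3 entry lay at 32.0 kb.

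Promoter sequences were held for 6 of the 10 genes. CACGTG was found in 3 of them, ATP6V0D1, ATP6V1G1 and ATP6V0B, each with a PRMT5 summit in its promoter window in at least 1 line. It was not found in the windows of ATP6V0C, ATP6V1D and ATP6AP1, which held no PRMT5 summit. GGGCGG, a GC-box core, was in 4 of the 6 and in 64.3% of all promoters. CCAAT was in 2 of the 6 and in 42.1% of all, and TGANTCA, an AP-1 type word, in none of the 6 and in 8.04% of all. A higher share at PRMT5 summits was not limited to the E-box. Where the window held a PRMT5 summit in LNCaP, in PC3 and in both, GGGCGG was in 87.0%, 79.8% and 83.6%. CCAAT was in 58.4%, 49.6% and 49.3% of these, and TGANTCA in 4.97%, 8.40% and 5.48%. Both strands were searched for each word.

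The rule's limit of 3 kb fell between the PC3 entry of ATP6V0B at 2.47 kb (fold 6.18) and a pair of entries beside ATP6V0D1. That pair lay 3.18 kb outside the gene in PC3 (fold 7.06) and 3.21 kb in LNCaP (fold 5.29).

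Of the 17 other pump genes, RNASEK was the one with a PRMT5 entry, and it had one in each line. RNASEK encodes a small membrane protein that is found in the V0 sector. The LNCaP peak at chromosome 17, positions 7012325 to 7012708, had a fold of 5.05, ranking 786 of 980 by fold and 370 by p. The PC3 peak at 7012107 to 7012614 had a fold of 13.8 and ranked 37 of 1661. They overlapped by 290 bp, with summits 99 bp apart at 253 and 154 bp outside the gene. A second PC3 entry, of fold 5.38, lay 97 bp beyond the other end and 153 bp from its neighbour BACC1.

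None of the other 8 V1 genes had a PRMT5 entry, and 2 of them had a PC3 METTL3 entry, against 11.6% of all protein-coding genes. The other 2 accessory genes, 1 of them a transcribed pseudogene, had no entry in any list. Of 12 assembly factors and regulators, 1, TBC1D24, had a PC3 PRMT5 entry (fold 6.48), against 4.59% of all protein-coding genes, and 4 had a PC3 METTL3 entry, against 11.6%. No entry lay at TFEB, TFE3, MITF or TFEC, where 0.389% to 11.6% of protein-coding genes had one, depending on the list. Nothing is read from an absence at so few genes. Among 18 genes of the mitochondrial ATP synthase, another rotary enzyme, a PRMT5 entry lay at ATP5MC1 in both lines (fold 11.0 in LNCaP and 7.67 in PC3, in peaks that did not overlap) and at ATP5F1D in PC3 (highest fold 6.76). By either line, 1 of the 17 other pump genes and 2 of the 18 synthase genes thus had a PRMT5 entry, where 6.28% of protein-coding genes did. The 6 of 10 above were chosen by their peaks, and no difference between these counts was tested.

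Other genes were set beside the pump genes by the percentile by fold of their highest entry in each PRMT5 list. The medians of the 4 pump genes with an entry in both lines were 90.8 in LNCaP and 77.8 in PC3. The LNCaP percentiles were 72.4 for ATP6V0B, 84.0 for ATP6V0C, 97.6 for ATP6V0D1 and 99.6 for ATP6V1G1. The PC3 ones, in the same order, were 58.8, 96.9, 97.4 and 38.1, so they were split and no single pump gene lay near the median pair. The PC3 percentiles of ATP6V0B and ATP6V0C come from the entries inside B4GALT2 and AMDHD2. Nearest to that pair of medians, among genes outside the lists with no METTL3 entry, were LMTK3 (fold 12.7 and 7.11), HOOK2 (12.4 and 6.99), CTDNEP1 (11.6 and 7.02), its neighbour GABARAP (11.6 and 6.92), which shares the LNCaP entry, and CUX1 (18.4 and 7.61). The likeness is to the medians, over 2 libraries only.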

How the data were processed

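An in-situ ChIP kit gave 1 library per antibody and cell line. The submitters' processing notes name hg38 and MACS2 2.1.0, Bowtie 1.1.1, Trimmomatic 0.33, bcl2fastq 2.17 and ChIPseeker. Not given in the sources used here are their settings, whether duplicates were removed and whether reads were shifted for the transposase, all of which could change which peaks were called. The authors deposited per peak a score, a fold (ratio over control), −log10 p, −log10 q and the summit; peaks were not pooled over samples.

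Peaks of chromosomes 1 to 22, X and Y were then matched to genes of a RefSeq table of GRCh38.p14 (the primary coordinates of hg38) with Python 3.11.15, pandas 2.3.3 and SciPy 1.17.1. Starts, strands and sequences came from a RefSeq promoter table holding 15843 protein-coding genes; windows on opposite strands were checked to be reverse complements in 3024 pairs. All 73 distinct list names matched. Assignment and word search were tested on simulated data. The genes and lists were chosen with earlier results of these data known. Named genes are the 10 subunits, other pump and regulator genes with a PRMT5 entry, neighbours within 3 kb, and the 5 genes nearest in percentile. Outside this rule the text names ATP6V0E2 (for its E-box), TFEB, TFE3, MITF, TFEC, ATP5MC1, ATP5F1D, AXL, KLK2, OXR1, DMXL1, DMXL2, VMA12, WDR7 and NCOA7, chosen after their values were seen. No test was run. Alternatives changed the window, thresholds, list length, overlap, gene types and promoter window.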

Additional observations from a re-analysis of the deposited data

How the results depend on the processing

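With 1 library per group no replicate could be left out, and depth is unknown, so a missing entry does not show that the protein was absent. No paired analysis was possible because each group has 1 library. With only annotated starts counted, which are held for 6 of the 10 genes, LNCaP PRMT5 entries lay at 3 genes, losing ATP6V0C and ATP6V1C1, the latter for want of a start. PC3 PRMT5 entries then lay at 4 genes, losing ATP6V1A for want of a start. Genes with an entry in both lines fell from 4 to 3, losing ATP6V0C. The METTL3 entry at ATP6V1A was lost, leaving 0 genes, with windows of 500 bp or 1 kb and with each peak given to its nearest gene. It was also lost with starts only, a setting that could not count ATP6V1A because no start is held for it. The shared regions numbered 3 and fell to 2, without ATP6V0C, when 50% of both peaks had to overlap, when summits had to lie within 200 bp, at −log10 q of at least 3 and at a fold of at least 5. Over genes of all types the share with an entry was 1.66% for PRMT5 in LNCaP, 2.33% in PC3 and 0.727% in both lines, and for METTL3 0.246% in LNCaP and 6.76% in PC3. In the 250 bases before the start alone, CACGTG was in 9.73% of promoters, and in 77.6%, 77.3% and 89.0% of those with a PRMT5 summit in LNCaP, PC3 and both. Of 73 alternative values, 11 could not move by construction (a narrower setting on a count of 0, or the shortened PC3 PRMT5 list for a count from another list). Of the other 62, 51 stayed within 1.5 times the count reported or within its interval, and 11 did not.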

Other observations

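Of 12 assembly factors and regulators of the pump, 4 had a METTL3 entry in PC3, where 11.6% of protein-coding genes did, and 3 of these are long genes with the entry inside. The remaining one, VMA12, had its summit 2994 bp outside the gene, barely within the 3-kb limit. Another protein-coding gene also had an end in reach of that summit. OXR1, an oxidation resistance gene whose family binds the V-ATPase, held 6 PC3 METTL3 entries over its 483 kb on chromosome 8, with folds of 3.40 to 6.22. In the 2.48 Mb around it lay 19 entries of that list. DMXL1 and DMXL2, subunit genes of the complex that reassembles the pump, held 1 each, with folds of 4.40 and 5.31. No PRMT5 entry of either line lay at these 3 genes. The long genes WDR7 (385 kb) and NCOA7 (151 kb) of the same list had no METTL3 entry, the nearest in PC3 lying 78.0 kb and 1.67 Mb away. The genes were named after their values were seen, and the part of gene length (483 kb for OXR1, 178 kb for DMXL1 and 175 kb for DMXL2) in these counts was not tested.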
